A study of Mus musculus with 3 samples.

Results

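The barcodes described here are 915 Leydig barcodes from the testis of an adult Tsc22d3-knockout (KO) mouse in which more than 20% of the unique molecular identifiers (UMIs, each standing for 1 captured RNA molecule) came from mitochondrial genes. They were selected by their own measured values. A barcode needed at least 500 UMIs, at least 200 genes, and a combined share of at least 0.5% of UMIs for the 6 Leydig genes Star, Cyp11a1, Cyp17a1, Hsd3b1, Hsd3b6 and Insl3, with at least 4 of the 6 detected. The complement genes C1qa, C1qb and C1qc, which mark macrophages, had to stay under 0.1% of UMIs. Of 18108 KO testis barcodes, 18062 had enough UMIs and genes and 5086 passed the Leydig conditions at any mitochondrial share, so the 915 barcodes were 18.0% of the Leydig barcodes (exact binomial 95% interval 16.9 to 19.1%, counting error only). The 915 were set against the 1715 Leydig barcodes with at most 10% mitochondrial UMIs, called the low-mitochondrial barcodes, and another 2456 lay between the limits. An earlier analysis of these data kept barcodes of at most 20%, and so left the 915 out.

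The series holds 3 mouse single-cell libraries, made with the droplet-based Chromium 3′ chemistry, which counts RNA at the polyadenylated end. Each library is 1 sample with no replicate. The first is a cauda epididymis aspirate of a chimera, a Tsc22d3-KO host that received mouse induced pluripotent stem cells (Pax7-nGFP iPS x goGermline), the second is a cauda aspirate of a Tsc22d3-KO mouse, and the third is the dissociated KO testis. The knockout is the goGermline line, and every Leydig barcode compared here carries it, so the data hold no wild-type Leydig cell and the comparison is one between barcodes of the same testis. Tsc22d3 itself had 23 UMIs in the 915 barcodes and 125 UMIs in the low-mitochondrial barcodes. The labels do not say which part of the gene was deleted, so 3′ counts do not check the genotype.

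Leydig cells lie between the seminiferous tubules and make testosterone. Star carries cholesterol to the inner mitochondrial membrane, where Cyp11a1 cleaves its side chain, and enzymes of the endoplasmic reticulum such as the Hsd3b family and Cyp17a1 complete the synthesis, while Insl3 is a peptide hormone of the same cells. The mitochondrial genome is transcribed inside the organelle and encodes ribosomal RNAs, transfer RNAs and messenger RNAs for subunits of the respiratory chain. The share of a barcode that is mitochondrial RNA is widely used to screen droplet libraries, because cells that have lost cytoplasmic RNA and cells rich in mitochondria can both score high.

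The KO testis library held 134795047 UMIs with a median of 4787.5 per barcode, and 16.4% of its UMIs were mitochondrial. The other libraries hardly contributed Leydig barcodes: 2 in the KO cauda, 1 of them over 20% mitochondrial UMIs, and 0 in the chimera cauda. No member sequence was also a passing barcode of another library, although 48 of them had at least 1 UMI in the chimera cauda, where 214502 barcodes were listed with a median of 2 UMIs. Barcodes that passed in 2 libraries numbered 14 for the KO cauda and the KO testis, 0 for the chimera cauda and the KO testis, and 124 for the 2 cauda libraries.

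The 915 barcodes differed from the low-mitochondrial barcodes both by more mitochondrial RNA and by much less of all other RNA. Their median was 2513 mitochondrial UMIs per barcode, against 1231 in the low-mitochondrial barcodes. Outside mitochondrial genes the median was 2056 UMIs (middle 50% of barcodes 1176.5 to 3898.5), against 13235 UMIs (9214.5 to 17417.5) in the low-mitochondrial barcodes. The gap in other RNA was thus larger than the gap in mitochondrial RNA. A median of 1335 genes was detected per barcode, against 3779 in the low-mitochondrial barcodes. The median mitochondrial share was 53.1% (middle 50% 35.0 to 64.7%, highest 91.4%), against 8.51%. Since the share chose the groups, these values describe them and support nothing.

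**Figure D1:**
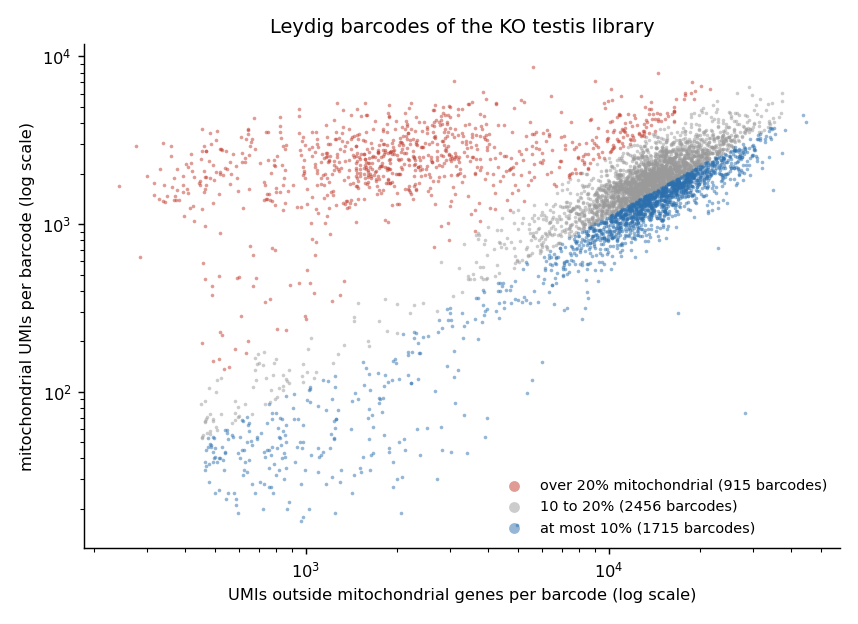
Each point is 1 of the 5086 Leydig barcodes of the KO testis, by its UMIs outside mitochondrial genes (horizontal, log scale) and its mitochondrial UMIs (vertical, log scale), coloured by mitochondrial share. Most of the 915 barcodes over 20% form a band near 2513 mitochondrial UMIs that reaches far to the left of the main cloud, while the 184 barcodes between 20 and 30% border that cloud.

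The members were not one kind of barcode. The 184 barcodes with 20 to 30% mitochondrial UMIs had medians of 9747.5 UMIs outside mitochondrial genes and 2965.5 mitochondrial UMIs. The 225 barcodes with 30 to 50% had medians of 2999 and 2195, and the 506 barcodes over 50% had medians of 1466.5 and 2572. Mitochondrial UMIs thus stayed in a narrow range from bin to bin while the rest of the RNA was scarcer at each step. The 20 to 30% barcodes held 52.8% of the group's 3261578 UMIs outside mitochondrial genes, and so weigh more in levels summed over the group than their number of barcodes would give them. Just inside the mitochondrial limit, 127 barcodes of 20 to 25% had a median of 13192 UMIs in all, and just outside it, 314 barcodes of 15 to 20% had 14451.5. At the other limit, 185 members whose 6 markers took 0.5 to 0.6% of UMIs had a median of 3746 UMIs, and the 269 barcodes over 20% whose markers took 0.4 to 0.5% had 3477. Macrophage barcodes of the same library (C1qa, C1qb and C1qc detected and together at least 0.5% of UMIs) and fibroblast barcodes (at least 4 of 6 collagen, proteoglycan and Pdgfra markers, together at least 0.5%) had the 6 Leydig genes under 0.5% of UMIs. The share over 20% was 4.38% for macrophage barcodes (102 of 2327, interval 3.59 to 5.30%). It was 4.12% for fibroblast barcodes (95 of 2308, interval 3.34 to 5.01%). Both intervals lie below that of the Leydig barcodes. A high share was not particular to Leydig barcodes, however. Of all 18062 KO testis barcodes with enough UMIs and genes, 4400 were over 20%, a larger share than among the gated Leydig barcodes. The 915 members were 20.8% of these 4400 barcodes. Both Leydig shares depend on the gate, whose 0.5% of all UMIs is harder to meet for barcodes rich in mitochondrial RNA. With the markers at 0.5% of UMIs outside mitochondrial genes, 2235 Leydig barcodes were over 20%. The low-mitochondrial barcodes then numbered 1727 against 1715. The values thus do not show that Leydig barcodes were over 20% less often than the library.

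Levels are given in CPM, the UMIs of a gene summed over a group of barcodes and scaled to one fixed total of UMIs outside mitochondrial genes. A fold is the level in the 915 barcodes over that in the low-mitochondrial barcodes. Its 95% interval is exact and covers counting error only, because with 1 library there is no replicate, no test and no p-value. With all UMIs as the denominator every log2 ratio is lower by 0.68, so each direction given here is relative to the RNA outside mitochondrial genes.

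The 6 gate markers chose the members and so describe them without checking the label. Steroidogenic genes outside the gate are given after the gene counts. They were listed with earlier results of these data known, so they are no independent check of the label. Cyp17a1 had a UMI in 100% of the 915 barcodes and Cyp11a1 in 99.0%, and the median number of the 6 markers detected was 5 in both groups, as the selection requires at least 4. Within the RNA outside mitochondrial genes the 6 markers moved apart. Cyp11a1 was at 5663 CPM in the high-mitochondrial barcodes and 3465 CPM in the low-mitochondrial barcodes, which is 1.63-fold (1.61 to 1.66). Star was at 1019 CPM against 769 CPM, or 1.33-fold (1.28 to 1.38), Hsd3b1 was 1.31-fold (1.28 to 1.34) and Cyp17a1 was 1.14-fold (1.12 to 1.15). Insl3 was at 3959 CPM in the high-mitochondrial barcodes and 4933 CPM in the low-mitochondrial barcodes, 0.803-fold (0.788 to 0.817), and Hsd3b6 was 0.844-fold (0.806 to 0.883). With all UMIs as the denominator, Cyp11a1 was 1.02-fold, Star 0.828-fold, Cyp17a1 0.709-fold, Hsd3b1 0.817-fold, Hsd3b6 0.527-fold and Insl3 0.501-fold, and Cyp11a1 was the 1 marker not below 1-fold. The gate asks for a share of all UMIs, which a barcode rich in mitochondrial RNA meets only with a higher share of the rest; the 6 markers took a median 2.30% of UMIs outside mitochondrial genes in the members and 1.93% in the low-mitochondrial barcodes. Hsd3b1 and Hsd3b6 are close paralogs whose reads can be split between them, and Insl3 overlaps Jak3 on the same strand.

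Across the bins of mitochondrial share the markers diverged most above 30%. Cyp11a1 (chromosome 9, 58006411 to 58027023, plus strand, GRCm38) was at 3465 CPM in the 5 to 10% bin, 4623 in the 10 to 20% bin, 4597 in the 20 to 30% bin, 5454 in the 30 to 50% bin and 8235 over 50%. Insl3 was at 4937, 5044, 4926, 3377 and 2388 CPM in the same bins. Star was at 769, 780, 691, 1158 and 1613 CPM. Up to 30% the levels of Insl3 and Star were close to those of the low-mitochondrial barcodes, and beyond it Star was higher and Insl3 lower.

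Genes that were higher in the 915 barcodes were far more numerous than genes that were lower. Those with the largest ratios included a host gene of small nucleolar RNAs, a glycosyltransferase and several nuclear RNA-binding proteins. Of 3867 genes that reached 50 CPM in whichever group was higher, 300 (7.76%) were at least 2-fold higher and 6 (0.155%) at least 2-fold lower. With all UMIs as the denominator the split turned round, to 25 higher and 693 lower, so the share of calls that were higher was 98.04% on the main scale and 3.48% on the other. Of the 300 genes, 204 were under 50 CPM in the low-mitochondrial barcodes and could pass the level filter only by being higher. Among the 3116 genes that had at least 50 CPM there, 96 were higher and 6 lower, and the median log2 ratio was −0.05. Here, as for the rest of the genes, the selection on mitochondrial share fixed the contrast, and the counts are a description.

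The gene with the largest ratio was Snhg11, a host gene of small nucleolar RNAs on chromosome 2 (158375638 to 158386145, plus strand, GRCm38). Its RNA is known as a long noncoding one, but the gene models used here class the gene as protein coding. It had 1731 UMIs in the 915 barcodes and 1465 in the low-mitochondrial barcodes, from totals of 3261578 and 22723781 UMIs outside mitochondrial genes. Its level was 531 CPM (506 to 556) in the high-mitochondrial barcodes and 64.5 CPM (61.2 to 67.9) in the low-mitochondrial barcodes, 8.23-fold (7.67 to 8.83). On the all-UMI scale the fold was 5.14, so its direction did not depend on the denominator. Ogt, the enzyme that adds N-acetylglucosamine to nuclear and cytoplasmic proteins (X chromosome, 101640060 to 101684351, plus strand), was at 470 CPM in the high-mitochondrial barcodes and 95.5 CPM in the low-mitochondrial barcodes, 4.92-fold (4.61 to 5.26). Akap8l, a nuclear A-kinase anchoring protein, was at 145 CPM against 29.7 CPM, 4.86-fold (4.32 to 5.48). Arglu1, a nuclear protein that modulates splicing and transcription, was at 455 CPM against 113 CPM, 4.02-fold (3.77 to 4.29).

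The other 8 of the 12 genes with the largest ratios lay between 3.82-fold and 4.81-fold. They include Prpf39, a factor of the U1 small nuclear ribonucleoprotein, at 130 CPM in the high-mitochondrial barcodes and 32.0 CPM in the low-mitochondrial barcodes, and Khdc4, an RNA-binding protein linked to splicing, at 88.3 CPM against 21.3 CPM. Rgs11, a regulator of G-protein signalling, was at 93.2 CPM against 20.9 CPM, and Ttll4, a tubulin polyglutamylase, at 70.2 CPM against 16.9 CPM. The remaining 4 were Olfr39, of the olfactory receptor family (4.81-fold), Fam193b (4.16-fold), AC149090.1, a gene model on an unplaced scaffold (3.99-fold), and Ankrd16 (3.82-fold). On the all-UMI scale, which lowers all log2 ratios by the same amount, the 12 ranged from 2.39-fold to 5.14-fold. Ratios this large could not fall below 1-fold by that shift. Prpf39 and Rgs11 each overlap a gene on the opposite strand.

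**Figure D2:**
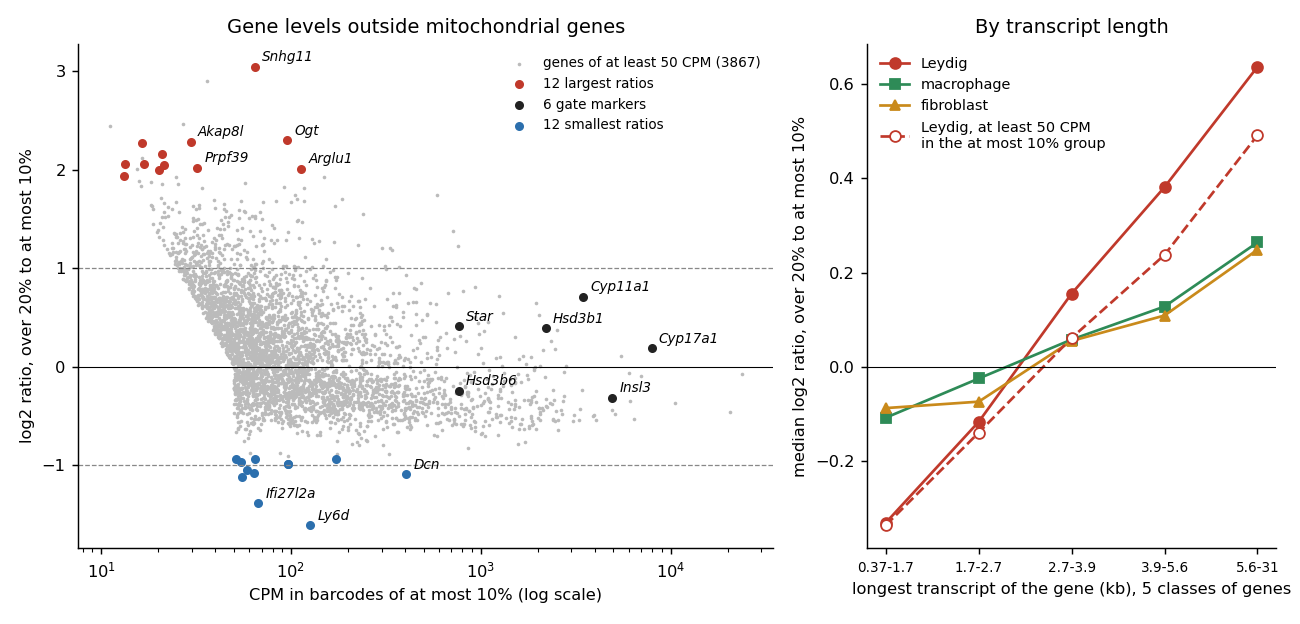
Left, each grey point is 1 of 3867 genes, by its CPM in the low-mitochondrial barcodes (log scale) and its log2 ratio, over 20% to at most 10%; dashed lines mark 2-fold, and the slanted left edge is the limit of 50 CPM. Right, the median log2 ratio for 5 equal classes of genes by transcript length in Leydig, macrophage and fibroblast barcodes; in Leydig barcodes it runs from −0.33 to 0.64, and from −0.33 to 0.49 (open points) over genes of at least 50 CPM in the low-mitochondrial barcodes.

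The share of barcodes with a UMI was also compared at equal depth. When every barcode was thinned to 1000 UMIs outside mitochondrial genes, 185 of the 915 barcodes and 118 of the 1715 low-mitochondrial barcodes were too shallow and were left out. Snhg11 was then detected in 41.2% of the high-mitochondrial barcodes (37.6 to 44.9%, 62.7% before thinning) and 5.32% of the low-mitochondrial barcodes (4.27 to 6.54%, 34.8% before thinning). In macrophage barcodes thinned alike, Snhg11 was found in 14.8% of those over 20% and 0.485% of those at most 10%, with unthinned medians of 4090.5 and 5475.5 UMIs outside mitochondrial genes. Ogt was found in 43.7% of the high-mitochondrial Leydig barcodes and 9.52% of the low-mitochondrial ones. Gapdh, a glycolytic enzyme chosen here after its values were seen, ran the other way, with 26.3% against 56.6%. Among the genes of lower level, Ly6d was found in 3.42% against 3.63% and the globin Hbb-bs in 1.37% against 0.689%. The shares of Ly6d and Hbb-bs thus did not follow their levels. The other lower genes named in the next paragraph were all found in a smaller share of the high-mitochondrial barcodes. Dcn was found in 9.04% against 21.7%, Ifi27l2a in 2.60% against 6.45% and S100a6 in 1.92% against 5.95%. The median number of genes per 1000 UMIs was 743 in the 915 group and 672 in the low-mitochondrial group.

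Few genes were lower, and the 6 past 2-fold were already lower in the 10 to 20% bin than in the 5 to 10% bin. They were Ly6d, a lymphocyte antigen 6 surface protein, Ifi27l2a, an interferon-induced gene, the matrix protease Adamts5, the matrix proteoglycan Dcn, the chromatin protein Hmgb2 and the calcium-binding S100a6. Ly6d was at 41.4 CPM in the high-mitochondrial barcodes and 126 CPM in the low-mitochondrial barcodes, 3.05-fold lower (2.57 to 3.65). Dcn was at 189 CPM against 403 CPM, 2.14-fold lower. Ifi27l2a was 2.61-fold lower, Adamts5 2.17-fold, Hmgb2 2.12-fold and S100a6 2.07-fold lower. The next 6 by ratio, all under 2-fold, were the globin Hbb-bs, the histone chaperone Npm3, the transcription regulator Id1, the RNA-binding Lsm2, the tetraspanin Cd63 and the mitochondrial ribosome subunit Mrpl48, between 1.91-fold and 1.98-fold lower.

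From the 5 to 10% bin upward Dcn was at 401, 139, 207, 256 and 81.2 CPM, and Ly6d at 128, 63.2, 32.5, 49.7 and 52.9 CPM. Neither series was even, and Ly6d had 4 UMIs in the 121 barcodes of at most 5%. Against those barcodes alone the direction of Ly6d was reversed, with a log2 ratio of 1.93, and it was reversed again, at 2.81, when both groups were limited to 1000 to 5000 UMIs outside mitochondrial genes. Hbb-bs was at 2653 CPM in the barcodes of at most 5% and 54.0 CPM in those of 5 to 10%, so a small set of barcodes carried much of its level. Its direction turned when barcodes with markers of another cell type were left out, to a log2 ratio of 1.79, and when the gate markers had to take 1% of UMIs, to 1.33.

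Since the bins divide the barcodes whose levels picked the genes, the series over the bins describes how the difference is spread and is no further support for it. Of the 300 genes, 258 were higher in each successive bin from 5 to 10% to over 50%, and so were all 12 named above. Snhg11 was at 63.3, 112, 198, 548 and 1253 CPM in those bins, Ogt at 95.5, 126, 205, 555 and 976 CPM, and Arglu1 at 112, 136, 217, 483 and 957 CPM. Above 30% the levels were many times those of the low-mitochondrial barcodes, and the 20 to 30% barcodes stood in between. The count of genes depended on this order: against the low-mitochondrial barcodes, the 731 members over 30% gave 1084 genes higher and 190 lower, and the 184 members of 20 to 30% gave 6 higher and 4 lower. Of the 103 genes that were at least 1.5-fold lower (2.66% of 3867, with 872 or 22.5% higher at that size), 67 were lower in each successive bin. The barcodes of at most 5% do not extend the series, with Snhg11 at 135 CPM.

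**Figure D3:**
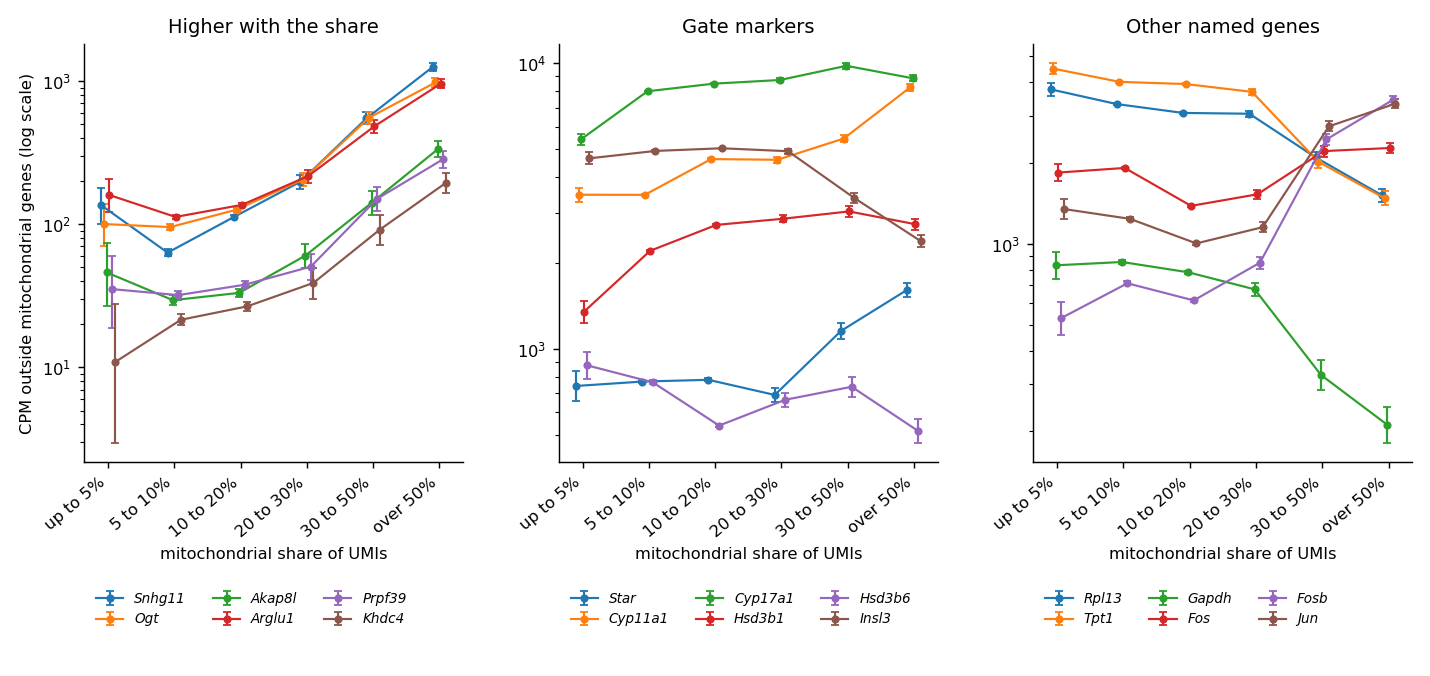
CPM outside mitochondrial genes (log scale) of 6 genes per panel in 6 bins of mitochondrial share, low to high; bars are exact Poisson 95% intervals for counting error. Snhg11 runs from 63.3 CPM at 5 to 10% to 1253 CPM over 50%, Cyp11a1 from 3465 to 8235 CPM, and Gapdh from 856 to 211 CPM.

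Steroid pathway genes that the selection did not use stayed at Leydig levels in the 915 barcodes. Of 32 such genes measured (over 3 UMIs in either group), 9 were at least 1.5-fold higher and 0 lower, with a median log2 ratio of 0.12; over all 15244 measured genes the shares were 34.2% higher and 6.38% lower. Together they took 20593 CPM in the high-mitochondrial barcodes and 19258 CPM in the low-mitochondrial barcodes, while in macrophages they took 4166 CPM over 20% and 2888 CPM at most 10%. The abundant members lay within 1.5-fold: the reductase Akr1cl was at 5735 CPM against 6012 CPM, the estrogen sulfotransferase Sult1e1 at 2815 against 2357 CPM, the electron carrier Fdx1 at 2240 against 2747 CPM and the prolactin receptor Prlr at 1865 against 1515 CPM. The luteinizing hormone receptor Lhcgr, chosen after its values were seen like the rest of this paragraph, was at 570 against 519 CPM. Among the members that stood higher were genes that handle cholesterol. The efflux transporter Abca1 was at 1759 CPM in the high-mitochondrial barcodes and 755 CPM in the low-mitochondrial barcodes, 2.33-fold (2.26 to 2.40), the lipoprotein receptor Scarb1 was 1.87-fold and the esterifying enzyme Soat1 1.68-fold. Nr5a1, the transcription factor that drives steroidogenic genes, was 1.58-fold.

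Of 24 genes of cholesterol synthesis and uptake, 5 were at least 1.5-fold higher and 0 lower. Over all measured genes the shares were 34.2% and 6.38%. The median log2 ratio of the list was 0.27, against 0.29 for all measured genes. The 4 most abundant members were Hmgcs1, at 1229 CPM in the high-mitochondrial barcodes and 974 CPM in the low-mitochondrial barcodes, Msmo1, at 877 against 722 CPM, Cyp51, at 567 against 480 CPM, and Fdps, at 468 against 525 CPM. These synthesis enzymes lay between 0.891-fold and 1.26-fold.

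Within the mitochondrial RNA, the ribosomal RNAs took a larger share in the 915 barcodes. The 12S RNA mt-Rnr1 was 3.59% of mitochondrial UMIs in the high-mitochondrial barcodes and 1.35% in the low-mitochondrial barcodes, 2.65-fold (2.62 to 2.69), and the 16S RNA mt-Rnr2 was 6.66% against 3.40%, 1.96-fold (1.94 to 1.98). Both ribosomal RNAs together averaged 274 UMIs per barcode against 58.0. Of the 13 messenger RNAs, 9 had shares between 0.895-fold (mt-Nd1) and 1.12-fold (mt-Nd4l), among them mt-Co3 (21.9% against 21.1%), mt-Atp6 (16.1% against 15.0%) and mt-Co2 (9.59% against 9.48%). Outside that range, mt-Nd6, the only messenger RNA on the opposite strand, was higher, with 0.322% against 0.241%, 1.34-fold (1.29 to 1.39). The lower ones were mt-Co1, with 16.02% against 21.67%, 0.739-fold (0.736 to 0.742), mt-Nd4, 0.847-fold, and mt-Atp8, 0.645-fold. All 15 RNAs had more UMIs per barcode in the 915 group. All but mt-Nd6 among these RNAs are cut from long transcripts of 1 strand.

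The share of ribosomal RNA differed by bin. Its median per barcode was 4.74% of mitochondrial UMIs in the 5 to 10% bin, 4.06% in the 10 to 20% bin, 4.34% in the 20 to 30% bin, 11.6% in the 30 to 50% bin and 12.8% over 50%. The step lay between the 20 to 30% bin and the 30 to 50% bin. The 121 shallow barcodes of at most 5% also had a high median, 14.8%, with only a median of 43 mitochondrial UMIs behind each. In macrophages and fibroblasts the order was the opposite one, with medians of 9.77% over 20% and 11.6% at most 10% in macrophages, and 7.51% and 10.9% in fibroblasts.

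**Figure D4:**
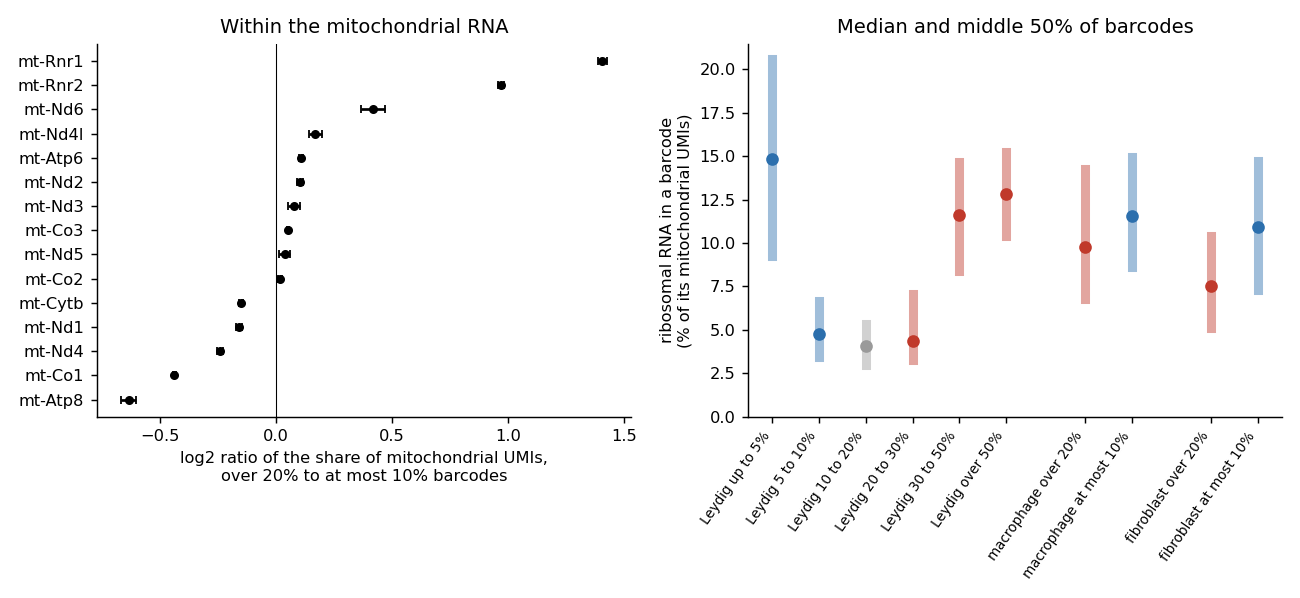
Left, the log2 ratio of each RNA's share of mitochondrial UMIs, over 20% to at most 10%, with exact 95% counting intervals; mt-Rnr1 and mt-Rnr2 lie farthest to the right and mt-Atp8 and mt-Co1 farthest to the left. Right, the ribosomal RNA share per barcode (point, median; bar, middle 50% of barcodes), with Leydig medians of 4.34% at 20 to 30% and 11.6% at 30 to 50%.

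Nuclear genes for the respiratory chain lay mostly below 1-fold within the RNA outside mitochondrial genes. They are not set against the mitochondrial genes, which the selection made high and the scale leaves out. Of 78 measured members, 0 passed 1.5-fold in either direction, 73 were below 1-fold, and the median log2 ratio was −0.32. That is near the median of abundant genes in general. It was −0.26 for genes of 300 to 1000 CPM in the low-mitochondrial barcodes and −0.36 for those of at least 1000 CPM. Together they took 45227 CPM in the high-mitochondrial barcodes and 54407 CPM in the low-mitochondrial barcodes. Cox6c, Cox4i1 and Cox8a, subunits of cytochrome c oxidase, were at 2777 against 2451 CPM, 2041 against 2188 CPM and 1917 against 1924 CPM, and Uqcr10, of the cytochrome bc1 complex, was at 1575 against 2140 CPM. Of 28 genes that replicate, transcribe or translate mitochondrial DNA, 10 were at least 1.5-fold higher and 2 lower, shares close to the 34.2% and 6.38% of all measured genes, and just 5 of them reached 50 CPM, with a median log2 ratio of 0.01. Of 28 genes of mitochondrial protein quality control and mitophagy, 3 were higher and 0 lower.

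Messenger RNAs of the translation machinery and of abundant cytosolic proteins were the lowest groups. Of 80 cytosolic ribosomal protein genes, 22 were at least 1.5-fold lower and 0 higher, against 6.38% lower and 34.2% higher over all measured genes. The ribosomal protein genes had a median log2 ratio of −0.52. They summed to 89115 CPM in the high-mitochondrial barcodes and 124787 CPM in the low-mitochondrial barcodes. By bin they took 12.4% of UMIs outside mitochondrial genes at 5 to 10%, 11.6% at 10 to 20%, 11.2% at 20 to 30%, 7.38% at 30 to 50% and 5.39% over 50%. Their level was thus near that of the low-mitochondrial barcodes up to 30% and well under it beyond. Of 20 abundant cytosolic proteins, 6 were lower and 1 higher, with the translation-controlled Tpt1 at 2774 against 4029 CPM and the iron store Fth1 at 4394 against 6375 CPM. Gapdh, the lowest of these 3, was at 484 CPM against 855 CPM, 0.565-fold (0.537 to 0.595). Antioxidant enzymes had 4 of 28 lower and 1 higher, and their most abundant members, the glutathione transferases Gstm1 and Gstm2, close paralogs, were at 4790 against 6101 CPM and 3615 against 4899 CPM.

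Genes induced by stress or dissociation were mixed. Of 25 immediate early genes, transcription factors and regulators that cells induce within minutes of a stimulus, 6 were at least 1.5-fold higher and 0 lower, with a median log2 ratio of 0.32. The share higher was below the 34.2% of all measured genes, and the median was near theirs of 0.29. Jun was at 2045 CPM in the high-mitochondrial barcodes and 1241 CPM in the low-mitochondrial barcodes, 1.65-fold (1.60 to 1.69), Junb was 1.46-fold, and Fos was at 1870 against 1918 CPM, 0.975-fold. Fosb and Btg2, chosen after their values were seen, were 2.59-fold (2.52 to 2.67) and 1.90-fold (1.81 to 1.98). Fosb was at 713, 615, 851, 2451 and 3438 CPM from the 5 to 10% bin upward and Fos at 1920, 1386, 1531, 2218 and 2279 CPM. Above 30%, Fosb stood farther from the low-mitochondrial barcodes than Fos did. In high-mitochondrial macrophages and fibroblasts the same list had medians of −0.13 and −0.02. Of 10 glucocorticoid-response genes, 3 were higher and 0 lower, again near the 34.2% of all measured genes, with Fkbp5, a chaperone of the receptor, at 183 against 104 CPM, 1.76-fold (1.60 to 1.92). On the all-UMI scale the median log2 ratios of the steroid, cholesterol, immediate early and glucocorticoid lists were −0.56, −0.41, −0.36 and −0.33, so their signs depend on the denominator.

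Among genes of the classical death and protein-folding responses, the shares at least 1.5-fold higher were below the 34.2% of all 15244 measured genes. Over all measured genes, 6.38% were lower. Of 22 genes of the unfolded protein and integrated stress responses, 5 were higher and 1 lower; the stress transcription factor Atf4 was 1.54-fold and the endoplasmic reticulum chaperone Hspa5 was at 751 against 609 CPM. Of 15 heat shock genes, 0 were higher and 1 lower, with Hsp90ab1 at 1460 against 1845 CPM. Of 21 apoptosis genes and p53 targets, 1 was higher and 2 lower. Mdm2, the p53 ubiquitin ligase and the higher one, was at 86.5 against 49.9 CPM, and the pore protein Bax, like Mdm2 chosen after its values were seen, was at 98.7 against 123 CPM. Of 27 genes of protein translocation and secretion, 1 was higher and 1 lower, and of 16 glycolytic genes 2 were higher and 0 lower. Of 13 genes of progenitor or fetal-type Leydig cells, 4 were higher, near the share of all measured genes, and 3 lower, above that share. The cytokine receptor Lifr was 1.68-fold, while Ly6a, a progenitor surface antigen chosen after its value was seen, was at 4.599 against 33.4 CPM.

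**Figure D5:**
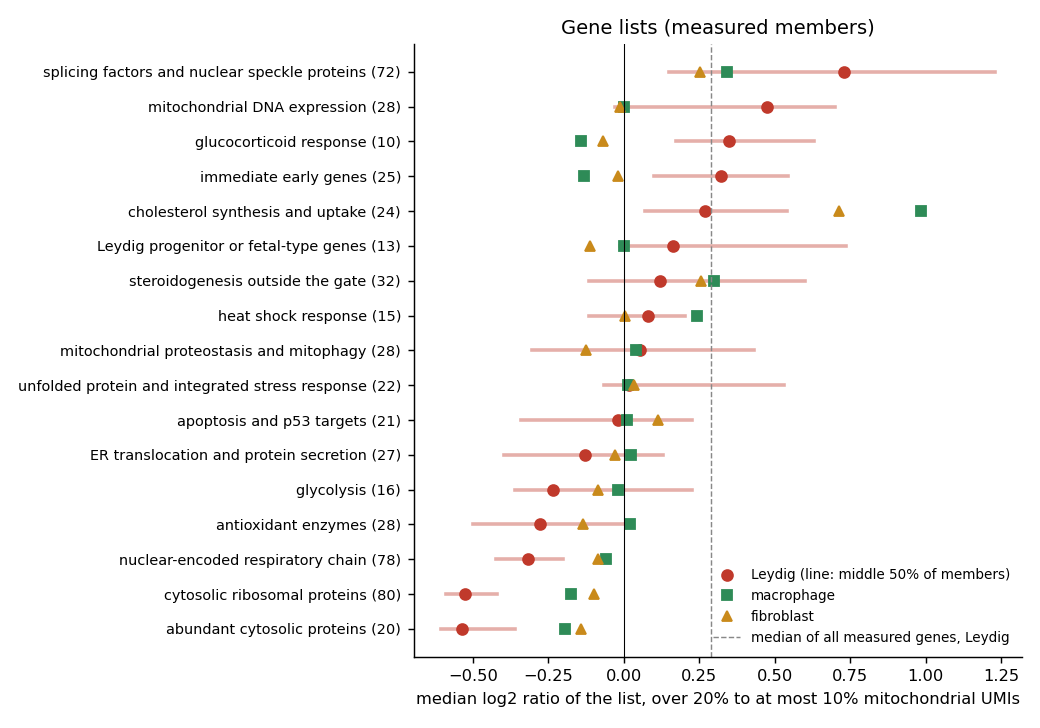
Median log2 ratio, over 20% to at most 10% mitochondrial UMIs, of the measured members of each gene list (number in brackets) in Leydig barcodes, with the middle 50% of members as a line, and in macrophage and fibroblast barcodes. Splicing factors have the highest Leydig median, 0.73, and cytosolic ribosomal proteins, −0.52, and abundant cytosolic proteins, −0.54, the lowest; the dashed line is 0.29, the median of all 15244 measured genes.

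Genes for splicing factors and nuclear speckle proteins were listed after the values of the leading genes had been seen, so their counts only describe. Of 72 measured, 42 were at least 1.5-fold higher and 0 lower, against 34.2% higher and 6.38% lower over all measured genes. The median log2 ratio of the list was 0.73, or 0.05 on the all-UMI scale. Luc7l2, of the U1 particle, was at 603 CPM in the high-mitochondrial barcodes and 185 CPM in the low-mitochondrial barcodes, 3.26-fold (3.09 to 3.44). The speckle protein Pnisr was 3.55-fold, the cyclophilin Nktr 3.33-fold, the U1 subunit Snrnp70 3.25-fold and the helicase Ddx17 3.18-fold. The core particle subunit Snrpd2 was at 232 against 347 CPM, 0.669-fold. The sum of the list was 1.02% of UMIs outside mitochondrial genes in the 5 to 10% and the 10 to 20% bins, 1.17% at 20 to 30%, 1.85% at 30 to 50% and 2.67% over 50%.

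The higher and the lower genes differed in length. The longest annotated transcript had a median of 5.24 kb among the 300 higher genes and 1.504 kb among the 103 lower genes, against 3.24 kb for all 3867. The exons numbered 17 and 6 in the median, against 9. When the genes were split into 5 equal classes by transcript length, the median log2 ratio was −0.33, −0.12, 0.16, 0.38 and 0.64, short to long. Genes at least 2-fold higher were 1.03% of the shortest class and 17.1% of the longest. Because genes under 50 CPM in the low-mitochondrial barcodes had to be higher to enter, the classes were also read over the 3116 genes with at least 50 CPM there, a choice made after seeing the data. The medians were then −0.33, −0.14, 0.06, 0.24 and 0.49, and genes at least 2-fold higher were 1 of 759 in the shortest class and 44 of 474 in the longest. Over the 3867 genes the medians ran the same way with smaller steps in macrophages, from −0.11 to 0.26, and in fibroblasts, from −0.09 to 0.25. Ribosomal protein genes, which are short, were 21 of the 103. Length, nuclear RNA-processing function and the ribosomal protein list overlap in these genes, and their parts in the result were not tested.

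Markers of other cells were compared list by list, and the macrophage list and the mast cell gene Kit were the ones at more than 2-fold in sum. The 11 macrophage markers together took 174 CPM in the high-mitochondrial barcodes and 75.3 CPM in the low-mitochondrial barcodes. Of the 11, 9 were at least 1.5-fold higher and 1 lower, against 34.2% and 6.38% of all measured genes. C1qa was at 29.4 against 11.9 CPM. The selection bounded the C1q genes by their share of all UMIs. Within the RNA outside mitochondrial genes that bound is looser for the high-mitochondrial barcodes. The 6 fibroblast markers took 574 against 815 CPM, the 6 myoid markers 182 against 215 CPM, the 6 pericyte markers 18.1 against 23.9 CPM and the 8 endothelial markers 54.9 against 60.2 CPM. Lum and Higd1b were at 0 UMIs in the 915 barcodes. The 8 Sertoli markers took 2985 against 2887 CPM, nearly all of it from Clu, Ctsl and Aard, while the defining Sox9 and Amh had 8 and 2 UMIs. Erythroid markers took 102 against 161 CPM, germ cell markers 8.28 against 18.8 CPM with Prm2, Tnp1 and Tnp2 at 0, T or NK markers 5.52 against 2.99 CPM with Cd3d, Cd3g, Nkg7, Gzma and Cd8a at 0, B cell markers 5.21 against 3.92 CPM with Cd79a, Ms4a1 and Pax5 at 0, and epididymal markers 17.2 against 18.2 CPM with Crisp1 and Lcn5 at 0. Of the mast cell list only Kit, a receptor that Leydig cells also carry, was measured, at 693 against 302 CPM, with Cpa3, Mcpt4 and Tpsb2 at 0; Kit was at 304, 410, 501, 849 and 965 CPM from the 5 to 10% bin upward. The part of these markers in the gene differences was not tested. When barcodes in which another cell type's markers took 1% of UMIs or more were left out, 907 members and 1684 low-mitochondrial barcodes remained, and 310 genes were higher and 6 lower.

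The same split in other cells of the library gave fewer genes. Among 3637 genes in macrophage barcodes, 97 (2.67%) were at least 2-fold higher and 21 (0.577%) lower over 20% than at most 10%. Among 3732 genes in fibroblast barcodes, 85 (2.28%) were higher and 31 (0.831%) lower. Both Leydig groups hold more UMIs, so these counts are not on one footing, and no test of their difference is possible with 1 library. The groups over 20% also differ in mitochondrial share, with medians of 53.1% in Leydig, 30.9% in macrophage and 32.6% in fibroblast barcodes. Leydig members of 20 to 30% alone gave 6 genes higher and 4 lower. Of the 300 genes higher in Leydig barcodes, 275 were above 1-fold in macrophages and 255 in fibroblasts, and all 12 named ones were so in both, with median log2 ratios of 1.203 and 0.752 against 2.058 in Leydig barcodes. Across genes the log2 ratios of Leydig barcodes correlated with those of macrophages (r = 0.544, 2628 genes) and of fibroblasts (r = 0.506, 2995 genes), which share the library and its free RNA. Snhg11 was at 238 CPM in high-mitochondrial macrophages and 6.90 CPM in low-mitochondrial macrophages, 34.4-fold (25.3 to 46.9), and 40.1-fold (27.0 to 59.9) in fibroblasts.

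High-mitochondrial macrophages and fibroblasts also held more RNA of the Leydig markers. The 6 gate markers took 2076 CPM in high-mitochondrial macrophages and 827 CPM in low-mitochondrial macrophages, and Cyp11a1 was 4.02-fold (3.54 to 4.55) and Insl3 1.65-fold (1.33 to 2.02). In fibroblasts the 6 markers took 1918 CPM over 20% and 900 CPM at most 10%. In thinned barcodes Cyp11a1 had a UMI in 96.3% of high-mitochondrial Leydig barcodes and 82.6% of low-mitochondrial ones, against 45.5% of high-mitochondrial and 17.5% of low-mitochondrial macrophages, at unthinned medians of 2056, 13235, 4090.5 and 5475.5 UMIs outside mitochondrial genes. Free RNA in the droplets can give such UMIs in any barcode, and its part in the levels of the 915 barcodes was not tested.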

How the data were processed

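Gene by barcode count matrices were analysed as deposited by the authors: UMI counts from Cell Ranger, version 6.1.2 for the KO testis and KO cauda and version 4 for the chimera cauda per the file headers. The submitters' processing notes also name Cell Ranger 6, Seurat 4.2.1 and the build GRCm38.p6. Gene models came from GENCODE M21, which held 99.9% of the 26124 gene identifiers.

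The members and lists were chosen with earlier results of these data known, and the list of splicing factors after seeing these values. UMIs were summed per group of barcodes and divided by the UMIs outside mitochondrial genes; 0 counts stood at a floor of 3 counts, and a bound that left the direction open was set to a log2 ratio of 0. Levels have exact Poisson, shares exact Clopper-Pearson and folds exact conditional binomial 95% intervals, which cover counting error only, since UMIs of 1 library are not replicates. Scripts were tested on simulated data and ran in Python 3.11.15, numpy 2.4.6, scipy 1.17.1 and pandas 2.3.3. No doublet caller was run; an alternative leaves out mixed barcodes.

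Named by rule were the 12 genes with the largest and the 12 with the smallest fold among those of at least 50 CPM in the higher group (without mitochondrial, ribosomal protein, Gm-numbered and Rik genes), the 6 gate markers, the 4 members with most UMIs of each list, and the 13 messenger and 2 ribosomal RNAs of mitochondria. Alternatives changed the mitochondrial limits, depth, gate, denominator, weighting, level minimum and fold. Of 14 noncoding RNAs listed as retained in the nucleus, only 1 (Snhg11) had a row in the count matrix, so the others could not be seen. Of the 3867 genes of at least 50 CPM, 99.5% were annotated as protein coding. The ranking of ratios therefore says little about noncoding RNAs.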

Additional observations from a re-analysis of the deposited data

How the results depend on the processing

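The counts of genes higher and lower, 300 and 6, moved with most choices. Members over 30% gave 1084 and 190, and those of 20 to 30% (184 barcodes) gave 6 and 4. A low-mitochondrial group of at most 5% gave 682 and 114. Both groups at 1000 to 5000 UMIs outside mitochondrial genes (543 members) gave 1650 and 506. Markers at 1% or more left 427 members with 127 and 10, and markers at 0.5% of UMIs outside mitochondrial genes gave 2235 members with 619 and 2. All UMIs as the denominator gave 25 and 693, equal weight per barcode 1010 and 82, at least 20 CPM 672 and 21, no minimum 2713 and 448, and 1.5-fold 872 and 103. The causes were not tested. Counts stayed within 1.5 times with at least 1000 UMIs (302 and 6), without mixed barcodes (310 and 6), without the gate markers in the denominator (315 and 6) and with a low-mitochondrial group of 5 to 10% (300 and 6), an alternative chosen after seeing the data.

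The 300 genes were all above 1-fold under every alternative except 3, which left 299 (20 to 30%), 297 (at most 5%) and 298 (1000 to 5000 UMIs) above it. For several alternatives this outcome was fixed in advance and supports nothing. The level minimum and the fold do not change the ratios. A changed denominator moves all log2 ratios by the same amount, too little to bring genes picked at 2-fold below 1-fold. Of the named genes past 2-fold, Ly6d was reversed. Its log2 ratio was 1.93 against barcodes of at most 5% and 2.81 at 1000 to 5000 UMIs, where the low-mitochondrial group held 155 barcodes. Hbb-bs, lower by a log2 ratio of −0.99 as reported, turned to 1.79 without mixed barcodes and 1.33 with markers at 1% or more. The length classes kept their order over genes with at least 50 CPM in the low-mitochondrial barcodes. List medians kept their sign in 18 of 18 lists at 1000 UMIs and in 9 of 18 with all UMIs. They did so in 15 of 18 with members of 20 to 30%, a low-mitochondrial group of at most 5%, 1000 to 5000 UMIs or markers at 1%. The remaining alternatives kept 16 or more. Of 95 named genes, 76 kept the sign of their ratio with members of 20 to 30% and 68 with all UMIs. Each of the other alternatives kept 85 or more.

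No paired analysis was possible because both groups of barcodes come from 1 library. The members' shallow barcodes limit precision: 3 counts are 0.920 CPM there and 0.132 CPM in the low-mitochondrial barcodes.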

Other observations

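The 121 Leydig barcodes with at most 5% mitochondrial UMIs, at the other end of the range, had a median of 1541 UMIs outside mitochondrial genes and 43 mitochondrial UMIs, against 13721 and 1291 in the 1594 barcodes of 5 to 10%. They held red cell and endothelial RNA. The alpha globin Hba-a1 was at 1070 CPM in them and 14.3 CPM in the 5 to 10% barcodes, 74.8-fold (64.4 to 86.9), and Hbb-bs was 49.2-fold (45.1 to 53.5). The tight junction gene Cldn5 and the secreted endothelial factor Egfl7 were 13.5-fold and 13.7-fold. The 5 erythroid markers together took 4614 CPM against 87.1 CPM and the 8 endothelial markers 217 CPM against 57.7 CPM. Of 24 genes of cholesterol synthesis and uptake, 0 were at least 1.5-fold higher and 8 lower. These barcodes are part of the low-mitochondrial group above, in which they are 121 of 1715.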
